A study of Mus musculus with 20 samples.

Results

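Interferon-stimulated genes were followed as a list of 39 mouse genes that cells switch on when interferon binds its receptors. On these arrays 36 of the 39 were measured, out of 18193 genes in all. A probeset was used only where the annotation gave it to a single gene, and each gene was represented by its probeset with the highest mean over the 20 arrays, so that 19 members rested on their only probeset and 17 on the brightest of several. Isg15 and Tgtp1 lay only on probesets annotated to several genes, and no probeset was annotated to Ifi44, so these 3 were dropped. The members fell into 6 roles, which were transcription factors (5 measured), sensors of foreign nucleic acid (4), antiviral effectors such as the Ifit, Oas and Mx proteins (15), the ISG15 protease Usp18 (1), GTPases of the guanylate-binding and immunity-related families (6) and other interferon-induced genes (5).

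Total RNA of 20 samples from mice of the FVB strain had been hybridised to Affymetrix MOE430 2.0 arrays, with 1 array per sample. The set comprised 5 normal skins of wild type mice aged 2 months, 7 skin tumors from k14Cre;p53loxP/loxP mice, called Trp53 tumors here, and 8 skin tumors from mice that also carried pRbloxP/loxP, called Rb;Trp53 tumors. All 15 tumors therefore shared the loss of p53 through a Cre recombinase driven by the keratin 14 promoter, which is active in basal cells of stratified epithelia and not in the stroma. By histology 6 tumors were poorly differentiated, 4 mixed, 3 undifferentiated and 2 spindle cell carcinomas, and both genotypes were present in the poorly differentiated, the mixed and the combined undifferentiated/spindle classes. The labels gave no age for the tumors, no treatment, and no word on whether each tumor came from its own mouse, so each p-value rests on the spread between the sampled tissues alone. Rb1, which only the Rb;Trp53 mice could delete, read 8.95 to 9.26 on the log2 scale in skin, 7.85 to 8.84 in Trp53 tumors and 6.55 to 8.14 in Rb;Trp53 tumors, and whether its probeset lies in the deleted exon was not tested. Trp53 was not analysed here. Array medians lay between 5.58 and 5.75 on the log2 scale, and no array was a copy of another.

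Interferons of type I signal through the receptor pair Ifnar1 and Ifnar2, and interferon gamma through Ifngr1 and Ifngr2, to Jak kinases and Stat transcription factors. The interferon-stimulated response element in target promoters is bound by complexes that hold Irf9, and the gamma-activated site serves genes that answer interferon gamma. In skin the program is known from the response to viruses, from wounds and from inflammatory disease, and both epithelial cells and leukocytes can run it.

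Of the 36 members, 26 had a promoter window in the RefSeq table used here (build GRCm38.p6, 250 bases before to 50 after the start). A response element, searched as 2 copies of GAAA with any 2 bases between them, or of TTTC on the other strand, was found in 14 of the 26 windows (53.8%), against 3.99% of the windows of 27025 genes. A gamma-activated site, spelled TTCNNNGAA on both strands, was found in 9 (34.6%), against 9.55% of all genes, and 4 members held both, with overlapping letters in 1 of them. A match is a description of the letters and not a proven site. The 150 bases before the start are shown for the 5 members with the largest differences past the test between tumor grades among those with a window, with response elements in capitals and all else in lower case, 5′ to 3′ on the strand of the gene.
Ifit1, chr19:34640739-34640888, plus strand: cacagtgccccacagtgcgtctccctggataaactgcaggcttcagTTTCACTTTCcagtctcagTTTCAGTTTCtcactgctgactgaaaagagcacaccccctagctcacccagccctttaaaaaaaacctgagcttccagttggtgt
Ifit3, chr19:34583379-34583528, plus strand: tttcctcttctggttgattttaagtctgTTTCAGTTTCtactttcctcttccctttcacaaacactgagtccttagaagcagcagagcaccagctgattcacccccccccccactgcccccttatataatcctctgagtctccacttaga
Gbp3, chr3:142559894-142560043, plus strand: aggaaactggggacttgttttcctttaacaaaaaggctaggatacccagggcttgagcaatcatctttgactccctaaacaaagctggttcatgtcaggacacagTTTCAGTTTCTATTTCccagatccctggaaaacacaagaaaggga
Bst2, chr8:71537473-71537622, minus strand: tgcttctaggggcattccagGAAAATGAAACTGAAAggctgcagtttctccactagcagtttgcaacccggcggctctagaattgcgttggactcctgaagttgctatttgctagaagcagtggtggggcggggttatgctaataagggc
Ifit2, chr19:34550544-34550693, plus strand: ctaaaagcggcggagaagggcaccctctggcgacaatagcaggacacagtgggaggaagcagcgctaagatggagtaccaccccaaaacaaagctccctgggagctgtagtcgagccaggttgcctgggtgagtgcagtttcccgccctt
Ifit1, Gbp3 and Bst2 held 2 elements each in these stretches, overlapping in Gbp3 and Bst2, and Ifit3 held 1 here and another farther upstream. Ifit2, whose level differed most between grades, held none in its windows. Oasl2, whose grade difference of 1.83 did not pass the test but was above that of Bst2 (1.76), held none either and is not shown.

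The level of the members differed from tumor to tumor. The per-sample median of the 36 differences from the skin mean, on the log2 scale, is a description of each tumor and carries no test. It was 1.09 in Rb;Trp53 tumor 3, 0.89 in Trp53 tumor 2 and 0.63 in Rb;Trp53 tumor 5, the 3 undifferentiated carcinomas. The spindle cell carcinomas were lower, at 0.13 in Trp53 tumor 1 and -0.25 in Rb;Trp53 tumor 1. The 6 poorly differentiated carcinomas ran from -1.25 to 0.29 with a median of -0.92, and the mixed tumors were at -0.22, -0.66, -1.09 and -1.68. The 3 undifferentiated carcinomas thus stood above every other tumor, and the spindle pair lay within the range of the poorly differentiated tumors. In bulk tissue fewer cells of a type and less RNA per cell cannot be told apart.

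**Figure D1:**
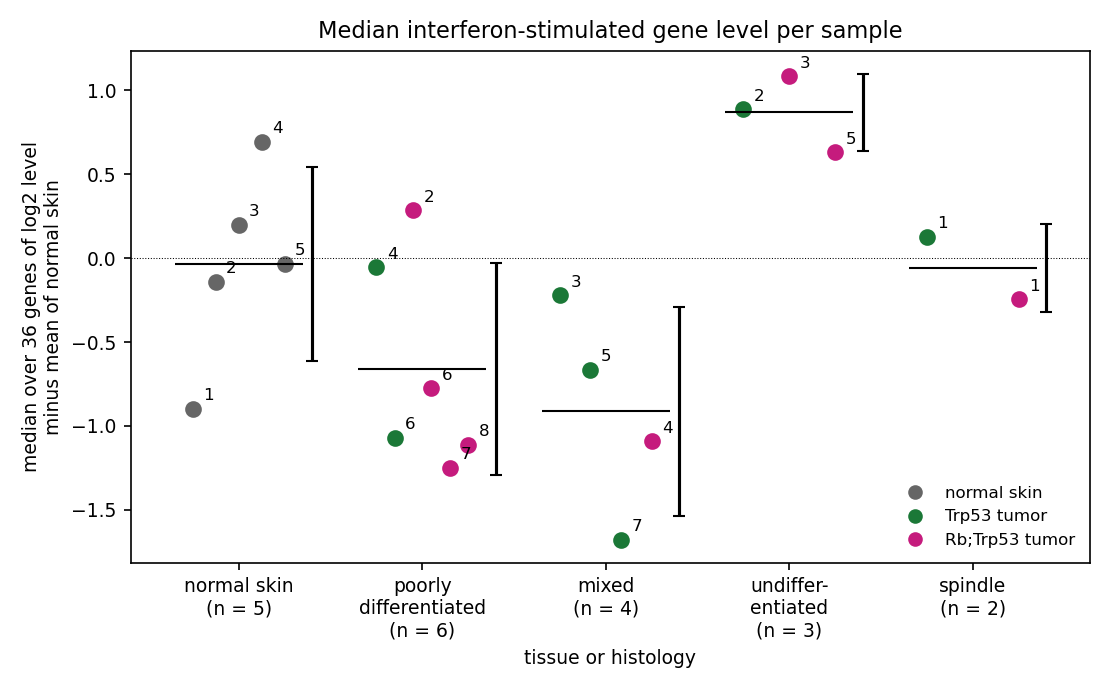
Each point is 1 sample, numbered by its replicate and colored by genotype, and the y axis is the median over 36 interferon-stimulated genes of the log2 level minus the mean of normal skin. Horizontal lines are class means and bars are 1 SD (0.87 ± 0.23 in 3 undifferentiated and -0.66 ± 0.63 in 6 poorly differentiated tumors), and the 3 undifferentiated tumors lie above all other tumors.

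Single tumors carried most of the high values. Rb;Trp53 tumor 3 was among the 3 highest of the 15 tumors for 33 of the 36 members and the highest for 14. Trp53 tumor 2 was among the 3 highest for 30 members, and Rb;Trp53 tumor 5 for 18. At the other end, the mixed Trp53 tumor 7 was the lowest of all tumors for 22 members. The SD over the 15 tumors ran from 0.44 to 1.74 among members, with a median of 0.99, against a median of 0.40 over all genes. Normal skin was not uniform either. The SD of a member over the 5 skin samples had a median of 0.61 (all genes 0.19), normal skin 4 was the highest skin sample for 29 members and normal skin 1 the lowest for 33.

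**Figure D2:**
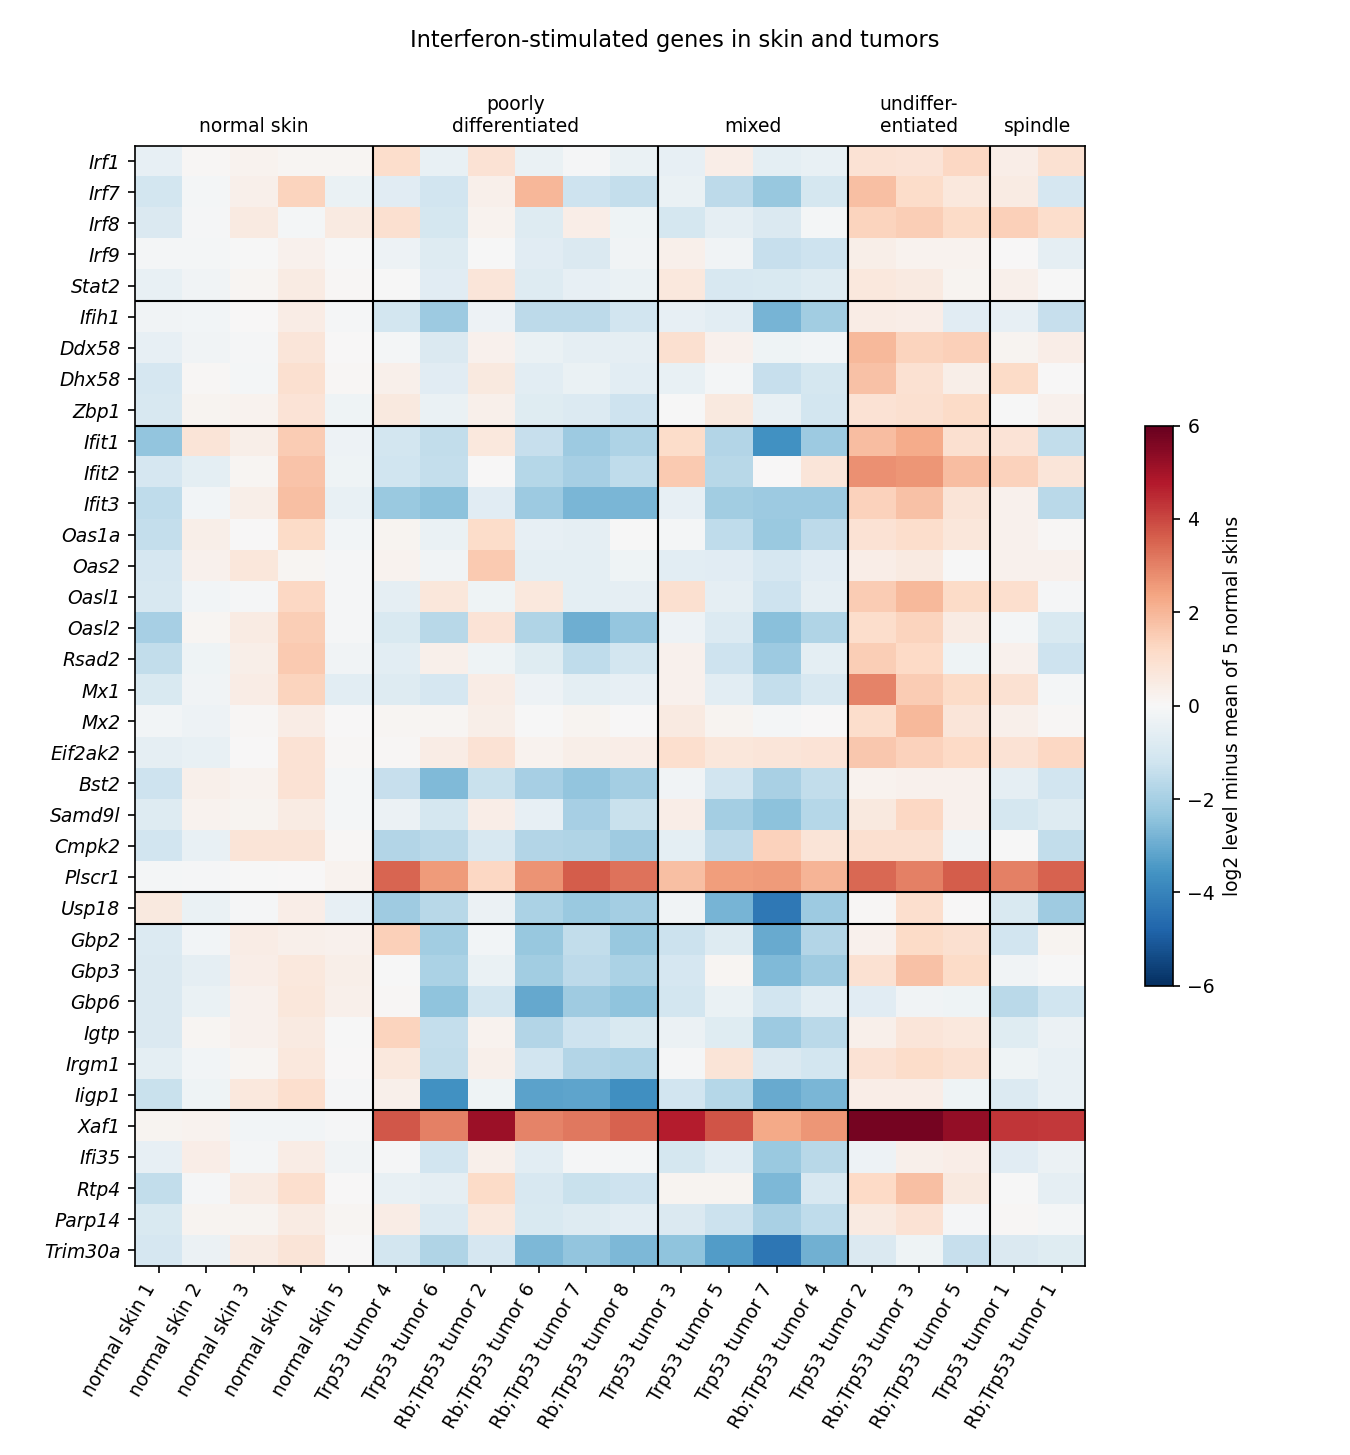
The color of each cell is the log2 level of a gene (rows, by role) in a sample (columns, by histology) minus the mean of the 5 normal skins. The undifferentiated columns are red for most genes and Trp53 tumor 7 is blue for most, while Xaf1 and Plscr1 are red in every tumor.

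The grade of the tumors was compared first, as 5 undifferentiated/spindle against 6 poorly differentiated carcinomas. The members stood higher in the undifferentiated/spindle tumors, 14 of them past the test. All 36 members had a positive difference, with a median of 1.11 on the log2 scale (0.01 over all genes), and the 14 that rose made up 38.9%, where 12.7% of all genes rose. No member fell, where 9.9% of all genes fell. A further 11 members had an unadjusted p under 0.05 without passing the adjusted test. Of all 18193 genes, 3493 were higher at that unadjusted threshold, including the 2304 that passed the adjusted test. In 3 members, Bst2, Ifit2 and Irf8, the groups did not overlap, as in 7.43% of all genes, and on the lower side in none (6.89% of all genes).

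Among the antiviral effectors, 8 of 15 rose. Ifit2, an RNA-binding inhibitor of translation, had the largest difference of all members. Its log2 level was 9.86 in Trp53 tumor 2, 9.77 in Rb;Trp53 tumor 3, 8.99 in Rb;Trp53 tumor 5, 8.48 in Trp53 tumor 1 and 7.83 in Rb;Trp53 tumor 1, and in the poorly differentiated tumors it ran from 5.13 through a median of 5.63 to 7.16. Every undifferentiated/spindle tumor was above every poorly differentiated one, and the difference was 3.17 ± 0.43 (SE) with an adjusted p of 0.000292 by limma.

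Ifit3, its partner in the Ifit complexes, read 10.42, 10.04 and 9.44 in Rb;Trp53 tumor 3, Trp53 tumor 2 and Rb;Trp53 tumor 5, then 8.90 and 7.03 in the spindle cell carcinomas. The poorly differentiated tumors ran from 5.93 through a median of 6.32 to 7.97. The top of that range, Rb;Trp53 tumor 2, lay above the lower spindle cell carcinoma, and the difference was 2.67 ± 0.57 (adjusted p 0.00577). Ifit1, which recognises the cap of foreign RNA, read 9.60, 9.24 and 8.32 in the undifferentiated tumors, 8.19 and 5.89 in the spindle ones, and 5.20 to 8.03 with a median of 5.93 in the poorly differentiated tumors. The ranges overlapped, and the difference was 2.10 ± 0.66 (adjusted p 0.0401). Leaving out any tumor other than Rb;Trp53 tumor 1 or 2 ended the call, with adjusted p up to 0.0966.

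The other effectors that rose were Bst2, which tethers budding virions to the cell surface (1.76 ± 0.32), the dynamin-like GTPase Mx1 (1.75 ± 0.45), Cmpk2, a mitochondrial nucleotide kinase next to Rsad2 in the genome (1.71 ± 0.40), the oligoadenylate synthetase-like Oasl1 (1.21 ± 0.37) and Eif2ak2, the double-stranded RNA-activated kinase PKR that stops translation (0.86 ± 0.16). Mx1 stood out in Trp53 tumor 2, at 8.55 against 7.12 and 6.74 in the other undifferentiated tumors. The remaining effectors had differences from 0.27 for Oas2 to 1.83 for Oasl2 and did not pass.

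Of the sensors, Ddx58 (RIG-I, a helicase that detects viral RNA) rose by 1.43 ± 0.32 and its regulator Dhx58 by 1.09 ± 0.34. The 2 other Dhx58 probesets, each tested on its own, gave -0.05 (adjusted p 0.812) and 1.09 (adjusted p 0.051). Zbp1, a sensor of Z-form nucleic acid, missed the test narrowly (1.02 ± 0.34, adjusted p 0.0503), and Ifih1 (MDA5) did not pass (0.97 ± 0.38, adjusted p 0.0942). Among the transcription factors, Irf8, a factor of myeloid cells and an interferon gamma target, rose by 1.38 ± 0.32 (adjusted p 0.00970). Its level varied little in the undifferentiated/spindle tumors, at 9.10, 9.05, 8.94, 8.75 and 8.65, and ran from 6.54 through 7.58 to 8.58 in the poorly differentiated ones, so the groups did not overlap. The other factors, Irf1, Irf7, Irf9 and Stat2, had differences between 0.53 and 0.96 that did not pass.

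Of the 6 GTPases, which attack vacuoles that shelter pathogens, Gbp3 alone rose. It read 9.75, 9.12 and 8.92 in the undifferentiated tumors, 7.97 and 7.77 in the spindle ones, and 5.92, 6.26 and 7.95 as the lowest, median and highest of the poorly differentiated tumors. The groups overlapped by 1 tumor, Trp53 tumor 4, and the difference was 2.02 ± 0.46 (adjusted p 0.00881). Iigp1 had a difference of similar size, 2.13 ± 0.75, that did not pass (adjusted p 0.0644), and Trp53 tumor 4 and Rb;Trp53 tumor 2 read 9.56 and 9.0 where the other poorly differentiated tumors read 5.59 to 6.10. Among the remaining members, Xaf1, an antagonist of apoptosis inhibitors (1.46 ± 0.43), and Trim30a, a restrainer of NF-kappa B signaling (1.13 ± 0.35), rose, while Usp18, the protease that removes ISG15 and damps the interferon receptor, did not pass (1.33 ± 0.52, adjusted p 0.0928). The second Xaf1 probeset, tested on its own, differed by 0.27 between grades (adjusted p 0.209). The other Trim30a probeset did not pass either (1.10, adjusted p 0.0945). Nor did another probeset of Ddx58 (0.33, adjusted p 0.0880) and of Eif2ak2 (0.69, adjusted p 0.0583), while the remaining ones of both genes passed. The other probesets of Cmpk2 and Irf8 passed.

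**Figure D3:**
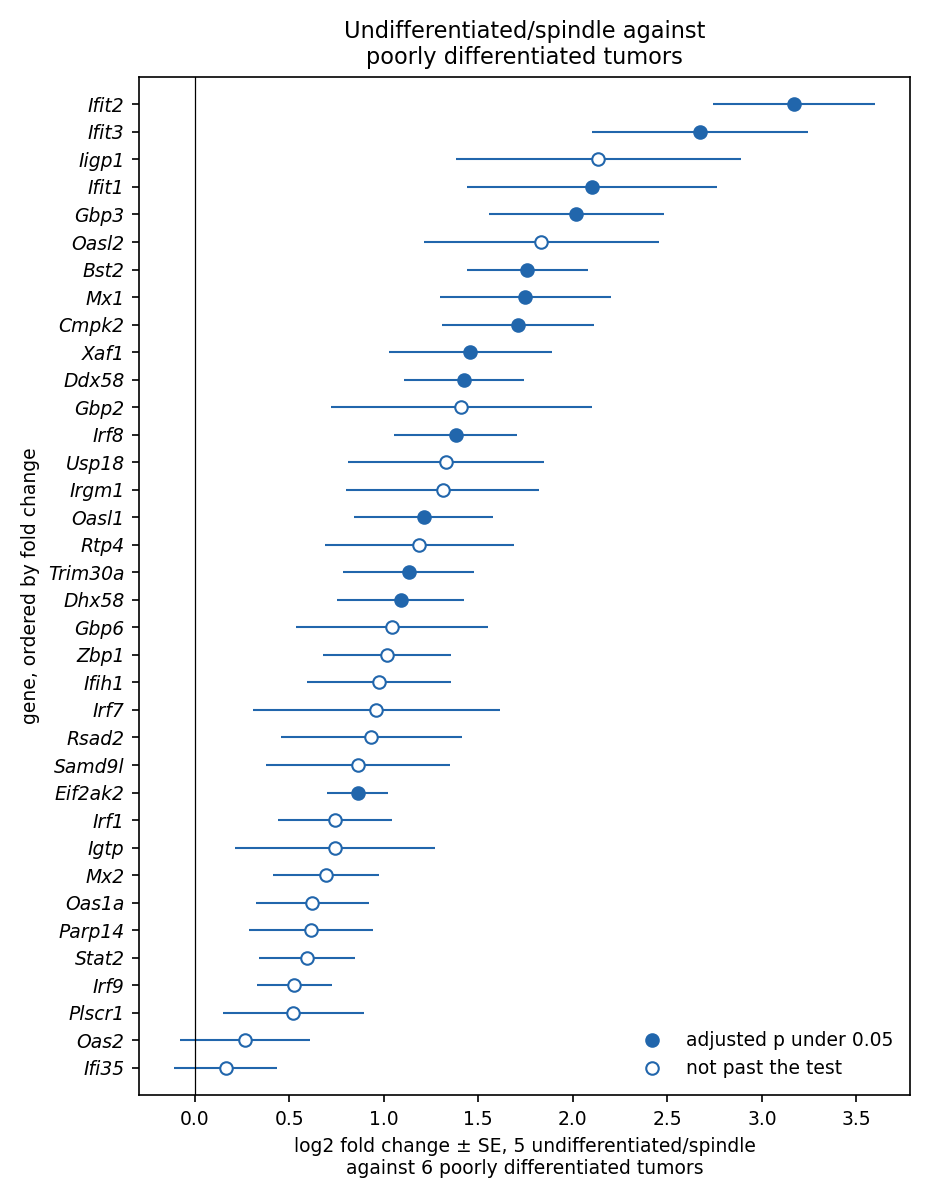
The x axis is the log2 fold change of 5 undifferentiated/spindle against 6 poorly differentiated tumors, bars are standard errors, and filled points passed an adjusted p under 0.05 by limma. All 36 genes lie right of 0, from 0.16 for Ifi35 to 3.17 for Ifit2, and 14 are filled.

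The count of 14 moved with single tumors and with the place of the mixed tumors. With those counted among the undifferentiated/spindle tumors 5 members rose, and the median over members was 0.52 in place of 1.11. In the same setting 1471 of all 18193 genes rose, in place of 2304. The count of members was 25 without the poorly differentiated Rb;Trp53 tumor 2, which had the highest median of that class, and 9 without Trp53 tumor 2, Rb;Trp53 tumor 3, Rb;Trp53 tumor 7 or Rb;Trp53 tumor 8. Whether the count over all genes moved alike in these repeats was not tested. Ifit2, Ifit3, Gbp3, Bst2, Mx1, Cmpk2, Ddx58, Irf8 and Eif2ak2 passed whichever tumor was left out. Ifit3, Mx1, Gbp3 and Irf8 among them lost the call with the mixed tumors counted as above (adjusted p 0.103, 0.335, 0.287 and 0.529 by limma). Ifit3, Mx1 and Cmpk2 lost it in Rb;Trp53 tumors alone (0.108, 0.134 and 0.141 by limma). Mx1 and Cmpk2 also lost it by the methods' t-test (0.0889 and 0.0751). Ifit1, Oasl1, Dhx58, Xaf1 and Trim30a each lost the call in 7 to 9 of the 11 repeats. Of the 14 members with a response element in the promoter window, 7 rose, and of the 12 with a window that held none, 5 rose.

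Markers of several cell types differed between the grades as well. All 7 markers of basal keratinocytes were lower in the undifferentiated/spindle tumors (median -6.40), and their summed log2 level was 10.3 to 12.6 there against 15.4 to 15.8. Of 16 markers of macrophages and monocytes, 8 were higher, among them the receptors Cx3cr1 (3.61 ± 0.25), Fcgr1 (2.61 ± 0.40) and Adgre1 (2.36 ± 0.43), none was lower, and the summed level was 15.2 to 15.9 against 12.3 to 15.8. Of 16 markers of T and NK cells, 5 were higher (sums 9.96 to 11 against 9.92 to 10.8), of 8 endothelial markers 5 (10.2 to 11.3 against 8.96 to 10.5) and of 8 fibroblast markers 1 (15.6 to 16.2 against 13 to 15.9), while 4 of 6 neutrophil markers were lower (8.73 to 10.2 against 15 to 15.5). Among 6 general leukocyte markers none passed (13 to 13.4 against 11.4 to 14.0), among 8 of skeletal muscle none (8.24 to 12.3 against 8.25 to 13.1) and among 6 of B and plasma cells none (7.57 to 9.91 against 7.99 to 13.4). The lists of 8 plasmacytoid and 9 conventional dendritic cell markers had 1 higher and none lower, and 1 higher and 1 lower (9.15 to 9.43 against 8.75 to 9.51, and 8.70 to 9.41 against 9.27 to 9.88). No marker reads 0 on this scale, and a sum follows the brightest genes of its list. Whether the markers, those of neutrophils among them, were read from other cells such as tumor keratinocytes was not tested. The sums therefore do not measure cell numbers. The signal of the 3′ over the 5′ actin control probesets, a sign of RNA integrity, was also smaller in undifferentiated/spindle tumors, at 0.24 to 0.38 log2 units against 0.42 to 0.82. The part of these differences in the result was not tested.

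The rest of the pathway was read from further gene lists. Of 50 other interferon-stimulated genes, 19 rose in the undifferentiated/spindle tumors and 2 fell (median 0.51). The largest rises were those of Ifi27l2a (2.47 ± 0.53), Epsti1 (1.85 ± 0.35), Ms4a4c (1.72 ± 0.40) and Lgals3bp (1.67 ± 0.43), and the falls were those of Ifitm1 (-2.89 ± 0.44), a membrane protein that blocks viral entry, and Slfn4 (-2.0 ± 0.59). Of 6 interferon-induced chemokines, 3 rose, the monocyte attractants Ccl2 (2.26 ± 0.34) and Ccl7 (2.20 ± 0.39) and the T cell attractant Ccl5 (2.41 ± 0.42). None of the 10 measured interferon genes passed in either direction by limma, and none had an unadjusted p under 0.05. Their summed log2 level was only 7.63 to 8.04 in undifferentiated/spindle and 7.68 to 8.70 in poorly differentiated tumors. Whether they stood above background was not tested, so a difference in interferon transcripts could have been missed.

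Both chains of the type I receptor rose, Ifnar1 by 0.91 ± 0.19 and Ifnar2 by 0.85 ± 0.21, while Ifnlr1, the receptor chain for interferon lambda and mainly epithelial, fell by 1.30 on the log2 scale (SE 0.26). Of 11 measured genes of the Jak-Stat relay and its inhibitors, 3 fell, the inhibitor Cish (-1.23 ± 0.26), Stat3 (-0.67 ± 0.21) and the kinase Jak2 (-0.64 ± 0.18), and none rose. Of 18 sensing adaptors and kinases, 4 rose, the DNA-sensing adaptor Sting1 (1.51 ± 0.31), Ifi204 (1.52 ± 0.33) and the endosomal RNA receptors Tlr7 (1.5 ± 0.35) and Tlr8 (1.43 ± 0.31), and the adaptor Myd88 fell (-0.61 ± 0.09).

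Each grade was then set against normal skin, so that these comparisons share the 5 skin samples. In the poorly differentiated carcinomas 11 members were lower than in skin (30.6%, where 22.0% of all genes were lower) and 2 higher (21.2% of all genes), with a median of -0.52 on the log2 scale against 0.00 over all genes. In the undifferentiated/spindle carcinomas 9 were higher (25%), a share close to the 25.7% of all genes, and none was lower, where 23.5% of all genes were, with a median of 0.46 against 0.02. By unadjusted p under 0.05, 2 members were lower in the undifferentiated/spindle tumors, where 4782 of all 18193 genes were.

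The members lower in poorly differentiated tumors came from every role. Iigp1 read 7.94, 9.0, 9.89, 10.24 and 9.20 in skin samples 1 to 5, and 5.59 through a median of 6.06 to 9.56 in the tumors. The difference was -2.27 ± 0.78 (adjusted p 0.0347), with Trp53 tumor 4 and Rb;Trp53 tumor 2 inside the skin range, and 8 of 11 repeats with 1 array left out ended the call (adjusted p up to 0.0843), the exceptions being those without normal skin 1, Trp53 tumor 4 or Rb;Trp53 tumor 2. Ifit3 read 7.16, 8.49, 9.0, 10.49 and 8.22 in skin, against 5.93 to 7.97 in the tumors (-2.18 ± 0.53, adjusted p 0.00619).

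Trim30a read 8.55, 9.21, 10.06, 10.34 and 9.59 in skin, and 6.83 through 7.46 to 8.52 in poorly differentiated tumors, where no tumor reached the lowest skin sample (-1.95 ± 0.40, adjusted p 0.00208). Bst2 was separated as well, at 7.45, 9.02, 8.90, 9.55 and 8.58 in skin against 6.06, 6.70 and 7.38 in the tumors (-1.95 ± 0.35, adjusted p 0.000945), as was Ifih1 (-1.32 ± 0.27). Such a full separation on the lower side held for 3 members (14.4% of all genes), and on the higher side for 2, Plscr1 and Xaf1 (14.3% of all genes). The others that fell were Gbp6 (-1.84), Usp18 (-1.72), Cmpk2 (-1.67), Gbp3 (-1.31), Ifit2 (-1.31) and Irf9 (-0.47), of which Gbp3, Ifit2 and Irf9 lost the call in 5, 8 and 6 of the 11 repeats. The count of 11 became 7 without any of normal skin 3, normal skin 4, normal skin 5, Trp53 tumor 6 or Rb;Trp53 tumor 6. Whether a count of 7 exceeded the share of all genes lower in the same repeats was not tested. Other probesets were also tested on their own by limma. Those of Trim30a (-1.07, adjusted p 0.0836), Iigp1 (-1.60, adjusted p 0.0663) and Cmpk2 (-0.36, adjusted p 0.0659) did not pass, while that of Gbp6 did. The other Trim30a probeset overlapped, at 6.70 to 8.56 in skin and 5.68 to 8.02 in poorly differentiated tumors.

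In the undifferentiated/spindle tumors the members above skin were Xaf1, Plscr1 and 7 others. Ifit2 read 6.13, 6.54, 7.25, 8.84 and 6.85 in skin samples 1 to 5, so that normal skin 4 lay above both spindle cell carcinomas (1.86 ± 0.52, adjusted p 0.0114). Irf8 read 6.73, 7.53, 8.12, 7.50 and 8.16 in skin, below all 5 tumors (1.29 ± 0.25, adjusted p 0.00112). Eif2ak2 (1.26 ± 0.24) and Irf1 (0.85 ± 0.17), the factor that carries much of the interferon gamma response, were also above skin in every undifferentiated/spindle tumor. Oasl1 (1.11), Ddx58 (1.05) and Mx2 (0.82) passed with overlapping groups, and lost the call in 8, 5 and 7 of the 10 repeats with 1 array left out. Another Ddx58 probeset, tested on its own by limma, did not pass (0.51, adjusted p 0.200), while its remaining one did. Groups were fully separated on the higher side for 5 members (19.8% of all genes) and on the lower side for none (18.2% of all genes).

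**Figure D4:**
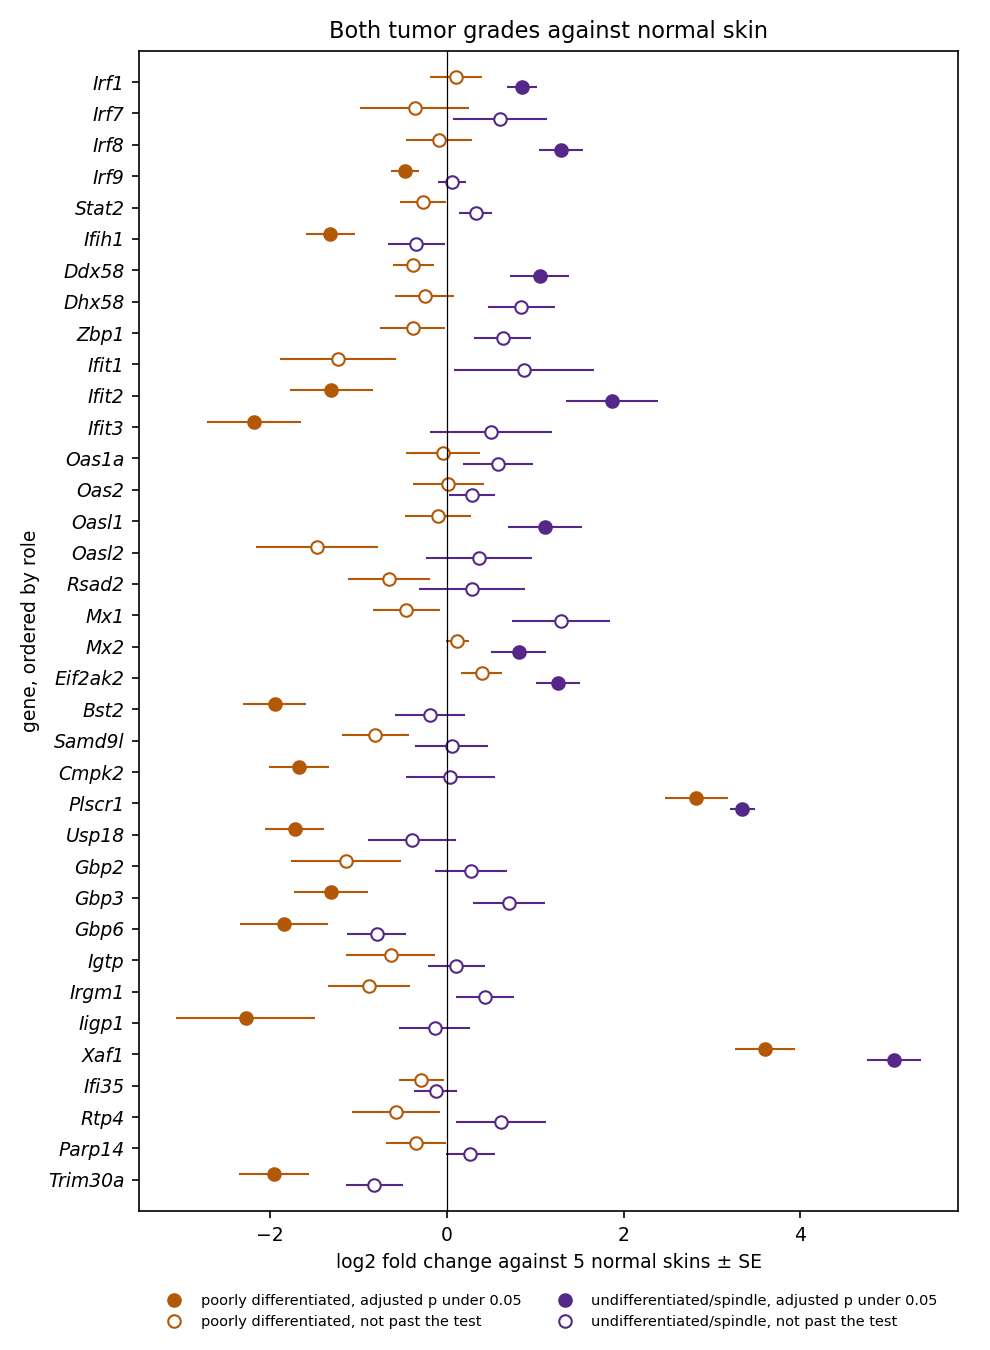
The x axis is the log2 fold change against 5 normal skins with standard errors, in orange for 6 poorly differentiated and in purple for 5 undifferentiated/spindle tumors, and filled points passed an adjusted p under 0.05. Most orange points lie left of 0 and most purple points near or right of it, and Plscr1 (2.82 and 3.34) and Xaf1 (3.60 and 5.06) lie far right in both.

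Side by side, members of the grade comparison took different places against skin. Bst2, 1.76 higher in undifferentiated/spindle than in poorly differentiated tumors, was -1.95 from skin in the poorly differentiated and -0.19 from skin in the undifferentiated/spindle tumors, which did not pass. Ifit3 was at -2.18 and 0.50 from skin, the latter not past the test. Irf8 was at -0.09 and 1.29, of which only the second passed, and Ifit2 passed on both sides, at -1.31 and 1.86.

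The wider pathway was set against skin in the same way. All 6 interferon-induced chemokines were above skin in the undifferentiated/spindle tumors, Ccl2 by 4.02 ± 0.24 and Cxcl10, a ligand for receptors of activated T cells, by 2.94 ± 0.66, and 2 were in the poorly differentiated tumors, Ccl2 by 1.76 ± 0.34 and Cxcl11 by 0.92 ± 0.28. Of 50 other interferon-stimulated genes, 11 were lower and 4 higher than skin in poorly differentiated tumors, against 3 lower and 12 higher in undifferentiated/spindle tumors. The 22.0% lower in poorly differentiated tumors equalled the share of all genes (22.0%), and the 24.0% higher in undifferentiated/spindle tumors lay close to it (25.7%), while the other shares, 8.0% higher and 6.0% lower, were under those of all genes (21.2% and 23.5%). Marker lists moved in both comparisons. Of the 16 macrophage and monocyte markers, 4 were lower and 1 higher in poorly differentiated tumors, and 1 lower and 10 higher in undifferentiated/spindle tumors, while of the 6 neutrophil markers 5 and 3 were higher and none was lower. All 8 skeletal muscle markers were lower in both grades, as were 6 of the 9 conventional dendritic and Langerhans cell markers, with 1 higher in poorly differentiated tumors. Of the 8 fibroblast markers 6 were lower in poorly differentiated tumors, and 5 lower and 1 higher in undifferentiated/spindle tumors. Endothelium went from 4 of 8 lower to 5 higher and 1 lower, and basal keratinocytes from 5 of 7 higher to 6 lower. Of the 16 T and NK cell markers 4 were lower and 1 higher, then 5 lower and 3 higher, and of the 8 plasmacytoid dendritic cell markers 2 were lower, then 1 lower and 2 higher. General leukocyte markers had none and then 2 of 6 higher, and B and plasma cell markers none in either grade. Their part in the members' values was not tested.

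With all 15 tumors taken as 1 group, few members differed from skin. The median difference was -0.32 on the log2 scale against 0.02 over all genes, 3 members were higher (8.3%, where 17.7% of all genes were) and 2 lower (5.6%, against 18.0%). Plscr1, a phospholipid scramblase that restricts viruses, and Xaf1 were the only members whose tumors did not overlap with skin, as 6.9% of all genes did on the higher side. Their SD over the 5 skins was small, at 0.14 and 0.18, and all their skin values lay under the medians of the skin arrays (5.58 to 5.63). Whether those skin values stood above background was not tested, so the differences from skin of these probesets may be lower limits. On the lower side no member was fully separated, where 6.38% of all genes were.

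Plscr1 read 4.97, 5.0, 5.06, 5.09 and 5.32 in skin, and 6.35 through a median of 8.11 to 8.74 in the tumors (2.84 ± 0.32, adjusted p 7.95e-07). Its lowest tumor was Rb;Trp53 tumor 2, the poorly differentiated tumor with the highest median over members. Its 3 probesets moved the same way, by 2.84, 3.03 and 1.30. The probesets used for Plscr1 and Gbp2 carry the design suffix _x_at and that of Ifi35 the suffix _s_at, marks of probes that can also match other transcripts. Xaf1 read 5.24, 5.29, 4.93, 4.90 and 4.99 in skin, and 7.35 through 8.84 to 10.82 in the tumors (4.02 ± 0.49, adjusted p 2.14e-06), with its highest values in the 3 undifferentiated carcinomas and Rb;Trp53 tumor 2.

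The other Xaf1 probeset went the opposite way. It had a mean of 6.62 in skin and 5.02 in the tumors, and tested on its own among 45037 probesets it was lower in tumors by -1.60 (adjusted p 2.60e-07). The 2 probesets therefore gave no single direction for Xaf1 against skin. Xaf1 lies on chromosome 11, as Trp53 does, with 98 protein-coding genes between them in GRCm38.p6, and the tumors carry engineered p53 alleles that the skin mice lacked, so tumor and allele origin cannot be told apart for genes near the locus. Over the 17 members with several probesets, 6 had probesets of opposite sign in tumors against skin and 2 in the grade comparison, Dhx58 and Plscr1.

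**Figure D5:**
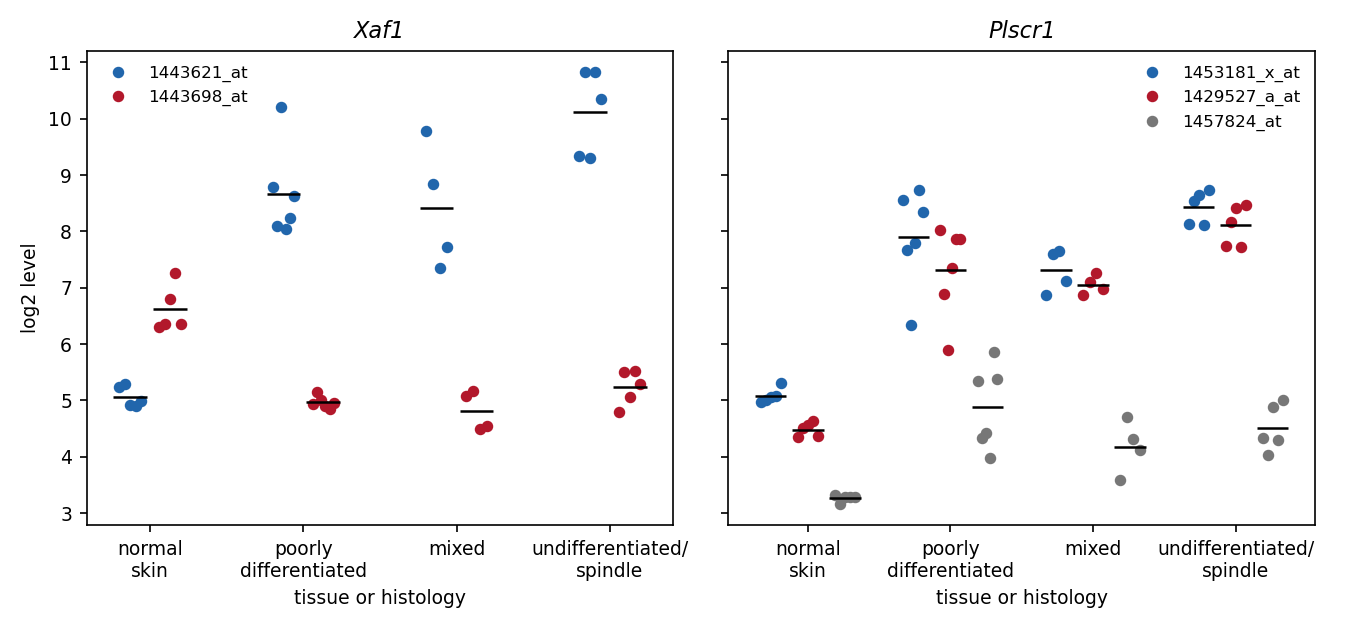
Points are samples, the y axis is the log2 level, colors mark the probesets of a gene and black lines are class means. The blue Xaf1 probeset rises from a mean of 5.07 in skin to 9.09 in tumors while the red one falls from 6.62 to 5.02, and all 3 Plscr1 probesets are higher in tumors.

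Eif2ak2 was the third member above skin (0.79 ± 0.24, adjusted p 0.0125). It read 5.79, 5.90, 6.37, 7.19 and 6.39 in skin, and 6.41 through 7.13 to 7.93 in the tumors. The call did not hold without normal skin 1 or normal skin 2 (adjusted p 0.0549 and 0.0501). Trim30a was lower, at 5.23 through 7.73 to 9.30 in the tumors, with overlap (-1.92 ± 0.53, adjusted p 0.00744). So was Gbp6, with skin at 7.32, 7.78, 8.41, 8.83 and 8.48 and tumors from 5.10 through 7.06 to 8.22 (-1.22 ± 0.43, adjusted p 0.0313). The Gbp6 call was lost without normal skin 3, 4 or 5, with adjusted p of 0.0747, 0.0989 and 0.0779. Tested on their own by limma, the other probesets of Trim30a (-1.15, adjusted p 0.146) and Gbp6 (-0.605, adjusted p 0.304) did not pass. Another probeset of Eif2ak2 did not pass either (0.39, adjusted p 0.320), while its remaining one did (1.40). The count of lower members became 5 without Trp53 tumor 2 or Rb;Trp53 tumor 3, and 1 without normal skin 3, 4 or 5. The counts over all genes in those repeats were not compared.

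Markers of other tissue differed between skin and tumors. All 8 skeletal muscle markers were lower in tumors, with summed log2 levels of 16.7 to 17.1 in skin against 8.24 to 13.1, and 4 of 8 fibroblast markers were lower (16.2 to 16.7 against 12.9 to 16.2). Of 16 markers of T and NK cells 6 were lower (10.5 to 10.8 against 9.48 to 11), of 9 of conventional dendritic and Langerhans cells 5 (10.8 to 11.2 against 8.70 to 10.1), and of 16 of macrophages and monocytes 1 was lower and 1 higher (14.3 to 15.2 against 12.3 to 15.9). Of 8 plasmacytoid dendritic cell markers only 2 were lower, though their sums did not overlap (11.8 to 12.4 against 8.75 to 9.68). A sum follows the brightest genes of its list. Which gene set these sums, and whether it was read from other tissue, was not tested, so they do not measure the number of these cells. Of 6 neutrophil markers 3 were higher (7.75 to 8.35 against 7.69 to 15.5), and of 8 endothelial markers 2 were lower (10.3 to 10.7 against 8.96 to 11.3). None passed among the lists of general leukocyte (12.2 to 13.2 against 10.7 to 14.0), B and plasma cell (7.64 to 9.29 against 7.54 to 13.4) and basal keratinocyte markers (14.8 to 15.1 against 10.2 to 15.8). The 3′ over 5′ actin signal was 0.50 to 1.19 log2 units in skin against 0.24 to 0.82. Their part in the result was not tested. In the wider pathway, 3 of 10 interferon genes were lower in tumors, Ifna5 (-1.17 ± 0.14), Ifng (-0.50 ± 0.09) and Ifna9 (-0.30 ± 0.10). The summed log2 level of all 10 was low, at 7.75 to 8.15 in skin and 7.62 to 8.70 in tumors. Whether these genes stood above background was not tested, so their differences may not reflect interferon transcripts. The inhibitors Socs3 (2.11 ± 0.37) and Socs1 (0.82 ± 0.19) were higher with the phosphatase Ptpn2 (0.68 ± 0.18). Of the 6 receptor genes, Ifnar1 was higher (1.17 ± 0.22) and Ifngr1 lower (-1.07 ± 0.30). Of the 50 other interferon-stimulated genes, 16.0% were lower and 6.0% higher, both under the shares of all genes (18.0% and 17.7%). The 8 lower ones were led by Trim34a (-3.30 ± 0.13), Ifi27l2a (-2.34 ± 0.74) and Epsti1 (-2.0 ± 0.59), and the 3 higher ones were Slfn9 (1.45 ± 0.23), Helz2 (1.39 ± 0.26) and Adar (0.33 ± 0.10).

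The roles did not rise and fall as 1 block in every tumor. Trp53 tumor 4, poorly differentiated, was among the 3 highest tumors for 4 of the 6 GTPases and the highest for 3. There Gbp2 read 10.68, Igtp 10.28 and Gbp6 8.22. In the same tumor none of the 15 effectors was among the 3 highest, and Ifit2 and Ifit3 read 5.92 and 6.45. As medians over a role of the difference from skin, its GTPases were at 0.47 and its effectors at -0.61. The mixed Trp53 tumor 3 showed the reverse order, with effectors at 0.26 and GTPases at -1.05. Ifit1, Ifit2 and Ifit3 read 8.48, 8.68 and 8.18 there, the highest of the mixed tumors. Trp53 tumor 4 also had the highest summed level of leukocyte markers (14.0) and of B and plasma cell markers (13.4) of all tumors. These are single tumors and no test was made of them.

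No member passed the test between Rb;Trp53 and Trp53 tumors. The median difference over members was 0.02 on the log2 scale (-0.01 over all genes), 19 members were above 0 and 17 below, and differences ran from -0.43 to 0.63. None passed at an adjusted p under 0.05 by limma (0.011% of all genes higher and 0.022% lower), none at the threshold of 0.1 that the study's methods use (0.022% of all genes higher and 0.033% lower), and none by the methods' t-test. None had an unadjusted p under 0.05 by limma, where 483 of all 18193 genes were higher and 480 lower. The smallest p belonged to Ifi35, a leucine zipper protein. It ran from 8.19 through 9.73 to 10.34 in 7 Trp53 tumors and from 8.73 through 10.30 to 10.82 in 8 Rb;Trp53 tumors (0.63 ± 0.34, adjusted p 0.954). Oas1a, a synthetase of the RNase L activator, came next (0.45 ± 0.49, adjusted p 0.981), from 6.43 through 8.55 to 9.51 against 7.06 through 8.67 to 9.74. For both genes the ranges overlapped over most of their length, and no member separated the genotypes (0.044% of all genes on the higher and 0.0934% on the lower side). In every other list of the pathway the count past the test was 0 as well.

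The difference between grades was also asked within each genotype, by an interaction term over the 11 tumors of both grades. No member passed in either direction and none of all genes did (0.0%), with 585 and 698 of all genes at an unadjusted p under 0.05 and no member among them. The members with the smallest p were Mx1 (-1.74 ± 0.86, adjusted p 0.712), with a smaller grade difference in Rb;Trp53 tumors, and Gbp2 (2.42 ± 1.37, adjusted p 0.737), with a larger one. With 2 tumors of each grade in the Trp53 genotype, the standard errors were wide, and the test does not show that the genotypes were alike.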

How the data were processed

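The deposited values were log2 levels that the authors had made from the arrays by RMA, which corrects background, normalizes across arrays and summarizes probes into probesets, and the sources used here give no version of it. Differences between groups in overall RNA amount would be lost in that normalization. The table held 45101 probesets, of which 64 control probesets were left out. The annotation gave a single gene to 34945 probesets, and each of the 18193 genes was represented by its brightest one.

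Groups came from the labels. Each comparison was fitted on its own groups with limma 3.58.1 (R 4.3.3) by its moderated two-sided test, without covariates, and the interaction on grade and genotype together. The p-values were adjusted by the Benjamini-Hochberg method across genes, and a call meant an adjusted p under 0.05. The limma test was checked on simulated data with the group sizes of the grade comparison and independent noise of equal spread in both groups. Genes that move together or differ in spread between groups were not simulated. Depth has no counterpart on arrays, so precision is limited by the number of samples.

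Any member could be named. Values in each sample were given for up to 4 members each way with the largest change past the test, and where none passed for the 2 with the smallest p, and some further members and genes of the other lists were named after their values were seen. The members and lists were chosen with earlier results of these data known. A summed level of a list is log2 of the sum of its unlogged values. Python 3.11.15, pandas 2.3.3, numpy 2.4.6 and matplotlib 3.10.9 were used. The alternatives were the median of a gene's probesets, arrays centred on their median, a filter on dim genes, the methods' t-test with unequal variances, a single fit over all arrays, the replicate number as a block, grade or genotype as a covariate, subsets of the samples and each sample left out. Each probeset on its own was tried after the data were seen.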

Additional observations from a re-analysis of the deposited data

Results flagged for a closer look

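In 148 groups of 4 to 6 samples, the highest or lowest sample of a member was compared with its neighbor, and 11 lay farther off than the critical value of Dixon's test. Chance flags about 1 in 20 groups. Several of the cases fell on the poorly differentiated Rb;Trp53 tumor 2, which was the highest of its class for Ifit3 (7.97 on the log2 scale), Oas2 (8.50), Usp18 (8.02), Xaf1 (10.21) and Rtp4 (10.10). The mixed Trp53 tumor 3 was the highest of its class for Ifit3 (8.18) and Stat2 (6.91), Trp53 tumor 5 for Irf1 (9.38), and Trp53 tumor 7 was the lowest for Oas2 (5.92). Normal skin 1 was the lowest skin sample for Irf1 (8.46) and Parp14 (7.11). No member moved in opposite directions between grades in all tumors of the 2 genotypes.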

How the results depend on the processing

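The counts of members depended on the samples more than their direction did. With 1 sample left out in turn, 9 to 25 members were higher in undifferentiated/spindle than in poorly differentiated tumors, 1 to 5 were lower in tumors than in skin, 7 to 13 lower in poorly differentiated tumors than in skin, and 0 to 2 lower in undifferentiated/spindle tumors than in skin, where 2 were lower without normal skin 1 or Rb;Trp53 tumor 3. Counts over all genes were not set beside these ranges, so they do not separate the members from all genes. Of the counts and medians under all alternatives, 320 stayed within their limits and 28 did not. These limits were wide. A count could move by a fixed factor, and a median by less than the SD between samples (0.56 to 0.87). The move of a median from 1.11 to 0.52, and that from -0.32 to 0.05 with the replicate block, stayed within them. Counts that remained at 0 stayed too, so the tally is not a measure of how firm the results are. The count of 14 members higher in undifferentiated/spindle tumors became 7 by the methods' t-test and 5 with the mixed tumors counted among them (median over members 0.52 in place of 1.11). It was 8 in Rb;Trp53 tumors alone, where 6 of the 14 kept the call. Of all 18193 genes, the 2304 higher ones became 1708, 1471 and 1488 in the same settings. The 2 members lower in tumors than in skin became 1 with the median of probesets or in Trp53 tumors alone, 4 with centred arrays or without dim genes (27 members left), 5 by the methods' t-test and 6 in a single fit over all arrays. Of all 18193 genes, the 3268 lower ones became 3028 and 2820 in the first pair of settings. They became 4234 with centred arrays, 1481 of 9096 without dim genes, 3985 by the t-test and 4125 in the single fit. No member was lower in undifferentiated/spindle tumors than in skin, but 2 were with centred arrays and 1 without dim genes. Of all 18193 genes 4276 were lower there, 4943 with centred arrays and 2249 of 9096 without dim genes. The cause was not tested.

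Of the values for single genes, 690 kept their call or stayed without one, 149 fell below the threshold in the same direction and 6 changed sign. Those without a call were Ifi35 and Oas1a between genotypes and Mx1 and Gbp2 in the interaction. Oas1a between genotypes changed to -0.0452 in a single fit over all arrays and to -0.0024 with grade as a covariate. The second Xaf1 probeset gave -1.60 for tumors, -1.65 for poorly differentiated and -1.38 for undifferentiated/spindle tumors against skin, and another Dhx58 probeset gave -0.0525 between grades.

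Centring the arrays moved the split of all genes called in tumors against skin from 3226 higher and 3268 lower to 2579 and 4234, and the dim filter to 2368 and 1481. In poorly differentiated tumors against skin centring moved it from 3855 and 4004 to 3043 and 5042, with the median of all genes at -0.10. A single fit over all arrays called 138 genes higher and 80 lower between genotypes, against 2 and 4.

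The replicate numbers were shared by groups without a stated pairing. Of 17 pairs with the same number, 3 had deviations that correlated over 0.1 (range -0.478 to 0.64). The highest, 0.628 for number 1 and 0.640 for number 6, joined tumors of the same histology, spindle and poorly differentiated. Histology was not removed from the deviations, so this check cannot decide whether samples with the same number were paired. With the replicate block 3 members were higher and 2 lower in tumors than in skin and the median over members was 0.05 in place of -0.32, and 0 members differed between genotypes.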
